A study of Mus musculus with 3 samples.

Results

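The cells described here are 253 barcodes from mouse arcuate nucleus with many transcripts of Gfap, the intermediate filament protein of fibre-forming astrocytes, out of 21143 barcodes in 3 single-cell RNA libraries. They were chosen by their own transcript counts. Each had no fewer than 500 detected genes, and no more than 20% of its unique molecular identifiers (UMIs, 1 per captured transcript) were mitochondrial. Each also had at least 8 UMIs of Slc1a2, Slc1a3, Agt and Ntsr2 together with at least 3 of these genes detected, at least 5 UMIs of Gfap, and fewer than 2 UMIs each of Rax (tanycytes), Cx3cr1 (microglia), Cldn5 (endothelium) and Mog (oligodendrocytes). The same gate with fewer than 5 Gfap UMIs gave 3116 cells for comparison, called Gfap-low cells. The label of the Gfap-high cells, astrocytes with high Gfap, held for fewer than all of them: 112 Gfap-high cells were rich in the glutamate transporter Slc1a2, and 141 were poor in it, most of which carried transcripts of ciliated ependymal cells. Both are described, under the names Slc1a2-rich and Slc1a2-poor.

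The tissue was the arcuate nucleus of male C57BL/6JRj mice, 5 to 6 weeks old, with 6 animals pooled into each library. Standard chow (SC) was eaten for 15 days from weaning in the SC group. A diet high in fat and sucrose (HFHS, 58%) was given for the last 5 of those days, after 10 days of chow, in the 5-day group, and for all 15 days in the 15-day group. A 1 mm punch of a 1 mm section was dissociated with enzymes and its cells were run on a droplet platform that counts the 3′ ends of transcripts. With 1 library per diet, nothing between diets could be tested. Intervals in square brackets are exact 95% intervals and cover counting error only.

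Astrocytes take up glutamate, buffer potassium and supply neurons with metabolites, and most grey-matter astrocytes make little GFAP. GFAP and vimentin build their cytoskeletal filaments, which are prominent in astrocytes of fibre tracts and of the brain surface and in astrocytes that react to injury. In the arcuate nucleus, astrocytes lie beside the third ventricle, whose wall is lined by ciliated ependymal cells and by tanycytes, both relatives of astrocytes that share several of their genes.

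The SC, 5-day and 15-day libraries held 7116, 6204 and 7823 barcodes with 59315940, 52735770 and 43193012 UMIs. Within the limits on genes and mitochondrial UMIs there were 5116, 4252 and 5501 cells, and 993, 976 and 1400 of them passed the astrocyte gate. Gfap-high cells numbered 93, 97 and 63 in the SC, 5-day and 15-day libraries. They were deeper than the cells they are set against: the median was 13165, 11606 and 7298 UMIs in Gfap-high cells, against 3128.5, 4304 and 2878 UMIs in Gfap-low cells. Pairs of libraries shared 13 to 85 barcodes, none of them among the Gfap-high cells. Among the cells with the highest doublet scores were 5, 6 and 5 Gfap-high cells of the 3 libraries. Among the Slc1a2-rich cells these scores marked 16.0%, 7.02% and 13.3% of Gfap-high cells, against 3.98%, 3.25% and 3.64% of Gfap-low cells.

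The promoters of Gfap and Vim, the filament genes these cells are read by, are shown for their sequence motifs. Both are from RefSeq on GRCm38.p6, 250 bases before to 50 after the annotated start, 5′ to 3′ on the gene's own strand. Gfap lies at chr11:102897151-102897450 on the minus strand and Vim at chr2:13574061-13574360 on the plus strand. Capitals mark matches on either strand. The motifs searched were the palindrome that STAT factors bind, TTCNNNGAA, and the AP-1 site of Fos and Jun proteins, TGANTCA. The others were the site that nuclear factor I proteins recognise, searched by its core TTGGC, then the TATA box of core promoters, searched as TATAAA, and finally the E-box of helix-loop-helix factors, searched as CACGTG.
Gfap: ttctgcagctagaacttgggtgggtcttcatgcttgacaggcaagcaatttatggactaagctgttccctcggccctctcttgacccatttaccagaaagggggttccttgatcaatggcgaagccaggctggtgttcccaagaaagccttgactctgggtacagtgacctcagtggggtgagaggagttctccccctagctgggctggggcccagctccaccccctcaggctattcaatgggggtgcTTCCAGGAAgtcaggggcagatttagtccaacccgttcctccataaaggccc
Vim: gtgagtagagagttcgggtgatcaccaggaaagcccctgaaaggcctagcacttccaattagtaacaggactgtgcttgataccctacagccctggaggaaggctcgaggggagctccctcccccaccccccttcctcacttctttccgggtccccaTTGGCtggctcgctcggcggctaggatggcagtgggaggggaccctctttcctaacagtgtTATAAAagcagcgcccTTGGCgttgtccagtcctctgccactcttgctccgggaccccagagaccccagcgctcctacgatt
The Gfap promoter held 1 match, to the STAT palindrome, starting at -2. Of all 32851 promoters in the table, 8.30% hold that motif, 7.81% an AP-1 site, 46.7% an NFI site, 13.6% a TATA box and 7.15% the E-box. The Vim promoter held 2 NFI sites and a TATA box starting at -32. Of 90 genes looked up (Gfap and the genes followed across settings below), 69 had a promoter in the table, 97 promoters in all. Among those 97, the STAT palindrome was in 6, AP-1 in 7, the NFI site in 48, the TATA box in 16 and the E-box in 6. No motif overlapped another by its letters, and a match is only a description of the sequence.

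Gfap-high cells formed a mixture in every library. The summed UMIs of Slc1a2, Agt (angiotensinogen) and Ntsr2 (a neurotensin receptor) were spread unevenly: 113 Gfap-high cells had under 20 per 10000 UMIs, 28 had 20 to 40, 7 had 40 to 60, 7 had 60 to 80 and 98 had at least 80. A limit of 40 per 10000, set after these values were seen, separated Slc1a2-rich from Slc1a2-poor cells; it is a range on a scale, not a cell type, and 35 cells lay between 20 and 60. Slc1a2-rich cells were 25 of 93 Gfap-high cells in the SC library (26.9% [18.2 to 37.1]), 57 of 97 in the 5-day library (58.8% [48.3 to 68.7]) and 30 of 63 in the 15-day library (47.6% [34.9 to 60.6]). By the same limit, 86.4%, 84.0% and 92.4% of Gfap-low cells in those libraries were Slc1a2-rich.

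**Figure D1:**
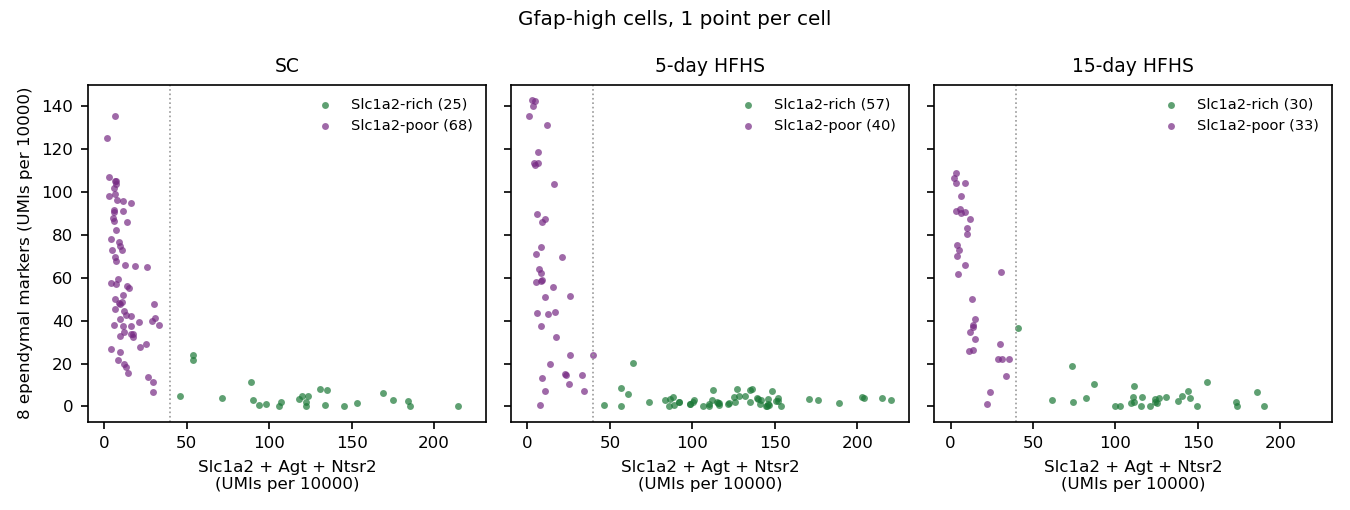
Each point is a Gfap-high cell; the x axis gives its Slc1a2, Agt and Ntsr2 UMIs and the y axis its UMIs of 8 ependymal markers, both per 10000 UMIs, and the dotted line is the limit of 40. In all 3 libraries the Slc1a2-poor cells ran up the left side, with median ependymal values of 53.7, 58.4 and 62.6 in the SC, 5-day and 15-day libraries, and the Slc1a2-rich cells lay along the bottom, with medians of 2.77, 2.62 and 3.21.

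Markers of other cell types set the 2 kinds of Gfap-high cell apart. Ependymal markers (Ccdc153, Tmem212, Foxj1, Rarres2, Dynlrb2, 1110017D15Rik, Tekt1 and Hydin, genes of motile cilia and their programme) summed to 7517, 9108 and 7800.1 counts per 1000000 UMIs (CPM) in Slc1a2-poor Gfap-high cells of the SC, 5-day and 15-day libraries, with all 8 detected. Their sum was 442, 282 and 546 CPM in Slc1a2-rich Gfap-high cells and 427, 319 and 273 CPM in Slc1a2-rich Gfap-low cells. Detection was also read after thinning to 3000 UMIs, here and below, with cells under 3000 UMIs left out. That kept 99 of 112 Slc1a2-rich Gfap-high cells, 1374 of 2752 Slc1a2-rich Gfap-low cells and 1228 of 1428 microglia. All 141 Slc1a2-poor Gfap-high cells were kept, and values without thinning cover all cells. Once thinned, Ccdc153 was detected in 62.4% (74.5% without thinning) of Slc1a2-poor and 2.02% (5.36% without thinning) of Slc1a2-rich Gfap-high cells. The same share was 3.42% (3.997% without thinning) in Slc1a2-rich Gfap-low cells and 2.28% (4.90% without thinning) in microglia, which should lack the gene. By Ccdc153 alone, Slc1a2-rich Gfap-high cells were near the background, at 2 of 99 cells, 2.02% [0.246 to 7.11]. The sum of all 8 markers was above the 76.0, 50.2 and 57.1 CPM of microglia in both Slc1a2-rich classes. At 15 days it was 546 CPM in Gfap-high cells, against 273 CPM in Gfap-low cells. In the SC and 5-day libraries it was 442 and 282 CPM, against 427 and 319 CPM. The part of ependymal transcripts in the gene differences below was not tested. Median depth before thinning was 21691 UMIs in Slc1a2-poor and 7183.5 in Slc1a2-rich Gfap-high cells, 2995.5 in Slc1a2-rich Gfap-low cells and 6264.5 in microglia.

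Slc1a2 itself, the main astrocyte glutamate transporter, was at 7392, 6755 and 6326 CPM in Slc1a2-rich Gfap-high cells, 564, 558 and 619.8 CPM in Slc1a2-poor Gfap-high cells and 6092, 6068 and 6129 CPM in Slc1a2-rich Gfap-low cells. Gfap was at 1788, 1712 and 1662 CPM in Slc1a2-rich Gfap-high cells, 713, 361 and 556 CPM in Slc1a2-poor Gfap-high cells and 177, 136 and 151 CPM in Slc1a2-rich Gfap-low cells. These genes chose the cells, so their levels are a description. Per cell, Gfap-high cells had a median of 12, 9 and 8 Gfap UMIs in the SC, 5-day and 15-day libraries and a maximum of 86, 178 and 35. Just outside the limit, 54 cells had 4 Gfap UMIs, with a median depth of 5851.5 UMIs and 41 of them Slc1a2-rich. Just inside it, 43 cells had 5 Gfap UMIs, with a median depth of 8846 UMIs and 20 of them Slc1a2-rich.

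Astrocyte markers outside the gate (Aqp4, Aldh1l1, Gja1, S100b, Sox9 and Aldoc) summed to 7807, 9200.5 and 7495 CPM in Slc1a2-rich Gfap-high cells and 5958, 7106 and 6643 CPM in Slc1a2-rich Gfap-low cells, against 4593, 4105 and 4603 CPM in Slc1a2-poor Gfap-high cells. Tanycyte markers, 13 genes without Rax, summed to 378, 238 and 481 CPM in Slc1a2-rich Gfap-high cells, 291, 195 and 292 CPM in Slc1a2-rich Gfap-low cells and 1077, 952 and 900.4 CPM in Slc1a2-poor Gfap-high cells. Pericyte and smooth muscle markers summed to 58.5, 57.8 and 35.6 CPM in Slc1a2-rich Gfap-high cells and 156, 81.2 and 246 CPM in Slc1a2-rich Gfap-low cells, and the 5 red blood cell genes to 26.6, 34.7 and 35.6 CPM in the Gfap-high class, against 69.8, 67.0 and 651 CPM in the Gfap-low class. Microglial markers summed to 42.6, 362 and 47.5 CPM in Slc1a2-rich Gfap-high cells and 228, 184 and 126 CPM in Slc1a2-rich Gfap-low cells. Among the same Slc1a2-rich cells, neuronal markers summed to 250.1, 556 and 409 CPM in Gfap-high cells, against 478, 265 and 576 CPM in Gfap-low cells. Oligodendrocyte markers summed to 958, 1014 and 1027 CPM in Gfap-high cells, against 1536, 1189.5 and 1231 CPM in Gfap-low cells, and oligodendrocyte precursor markers summed to 367, 264 and 338 CPM in Gfap-high cells, against 310.0, 279.8 and 284 CPM in Gfap-low cells. Endothelial markers summed to 15.97, 16.5 and 23.7 CPM in Gfap-high cells, against 33.1, 21.5 and 31.4 CPM in Gfap-low cells, with 5 of 7 at 0 in Gfap-high cells of every library. Leptomeningeal markers summed to 122, 62.7 and 131 CPM in Gfap-high cells, against 119.5, 95.6 and 171 CPM in Gfap-low cells. Of these lists, the astrocyte and tanycyte sums were above those of Slc1a2-rich Gfap-low cells in all 3 libraries, and the oligodendrocyte, red blood cell, endothelial, and pericyte and smooth muscle sums were below them in all 3. The part of these other transcripts in the gene differences below was not tested.

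All Gfap-high cells were first compared with all Gfap-low cells, as the gate defines them. UMIs were summed per library and class and tested with edgeR's quasi-likelihood test with library as a block, so that the 3 libraries are the replicates; adjusted p-values are by Benjamini-Hochberg over all genes tested and a gene is called at an adjusted p under 0.05. Of 12828 genes tested outside the gate, 3469 (27.0%) were higher and 3427 (26.7%) lower in Gfap-high cells, and the median log2 fold change was -0.04. The largest called increases were Gem (a small GTPase), Apobec2, Adamtsl1, Pvalb (a calcium buffer), Fgl2, C3 (the central complement protein), Cox6a2, Tesc, Capn6, Tnnt3, Cd36 and Cdkn2b. C3 was at 139, 99.99 and 161 CPM in Gfap-high cells, against 40.004, 31.7 and 15.4 CPM in Gfap-low cells (log2 fold change 2.29 ± 0.25, adjusted p = 8.2e-05). Apobec2 was at 137, 92.2 and 99.7 CPM in Gfap-high cells, against 29.6, 17.4 and 17.9 CPM in Gfap-low cells (log2 fold change 2.45 ± 0.12, adjusted p = 1.4e-05). Neither pair of ranges overlapped, but both genes were chosen by their calls.

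Most of these leading genes were carried by the Slc1a2-poor cells. C3 was at 152, 146 and 195 CPM in Slc1a2-poor Gfap-high cells and 5.32, 0 and 0 CPM in Slc1a2-rich Gfap-high cells, where it was seen in the SC library only. Apobec2 was at 150.4, 132 and 119.9 CPM in Slc1a2-poor and 0, 6.60 and 5.93 CPM in Slc1a2-rich Gfap-high cells. Gem was at 15.97, 23.1 and 29.7 CPM in Slc1a2-rich Gfap-high cells, 2.76, 1.54 and 1.85 CPM in Slc1a2-rich Gfap-low cells and 35.8, 17.5 and 39.5 CPM in Slc1a2-poor Gfap-high cells; the Slc1a2-rich Gfap-high values rest on 3, 14 and 5 UMIs, of which 1 cell held 66.7%, 64.3% and 40.0%. None of the 12 leading increases had the 60 UMIs in Slc1a2-rich cells that the test asked for. The largest called decreases were Vtn, Ins2, Nxph1, Qpct, C1ql1, Olfm2, Plppr5, Chga, Sst, Cspg4, Brinp3 and Gjc3, among them genes of pericytes (Vtn), oligodendrocyte precursors (C1ql1, Cspg4) and neuroendocrine cells (Chga, Sst). C1ql1 was at 6.62, 11.5 and 11.5 CPM in Gfap-high cells, against 125, 167 and 34.1 CPM in Gfap-low cells (log2 fold change -3.50 ± 0.30, adjusted p = 3.0e-05), but at 0, 6.60 and 23.7 CPM in Slc1a2-rich Gfap-high cells and 16.6, 5.53 and 9.50 CPM in Slc1a2-rich Gfap-low cells, which overlap. Of the 3469 genes called higher in all gated cells, 2645 were tested in Slc1a2-rich cells and 908 of those were called higher there; 3086 of the 3427 lower genes were tested there and 736 were called lower. For that reason the gene groups below are given within Slc1a2-rich cells, a comparison added after these data were seen.

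Within Slc1a2-rich cells, 112 Gfap-high cells (25, 57 and 30 in the SC, 5-day and 15-day libraries) were set against 2752 Gfap-low cells (778, 738 and 1236). The sums of these Gfap-high cells held 187910, 605730 and 168514 UMIs, so low CPM values there rest on few UMIs. Filament, microtubule, S100 and antioxidant genes were among those higher in the Gfap-high cells, and genes of protoplasmic, grey-matter astrocytes were among those lower. Of 10813 genes tested, 1111 (10.3%) were called higher and 876 (8.10%) lower in Gfap-high cells, with a median log2 fold change of -0.07. Depth differed here too, with medians of 6414, 10471 and 5292.5 UMIs in Gfap-high cells, against 2858, 3749.5 and 2728.5 UMIs in Gfap-low cells. Of these calls, 390 higher and 123 lower also passed when each library was left out in turn and when cells were limited to 4000 to 16000 UMIs. List members are named below as changed only where they passed in all of these; Aqp4 and Gja1 are named for their levels and were not among them. At 4000 to 16000 UMIs, Gfap-high cells were still deeper, with medians of 7864.5, 10447.5 and 5838.5 UMIs in the SC, 5-day and 15-day libraries. Gfap-low cells in that range had medians of 5062, 6059.5 and 5037.5 UMIs. The part of depth in the calls that held was not tested. Without the 5-day library, 470 genes were higher and 194 lower, and without the SC library 430 were lower. Without the cells of highest doublet score, 894 were higher and 509 lower. Overlap between classes, here and below, is stated mostly for genes already chosen by their calls, so it is a description and adds no support. The share of all tested genes without overlap was not counted. In all that follows, 3 values stand for the SC, 5-day and 15-day libraries in that order, folds are log2 fold changes of Gfap-high over Gfap-low cells ± SE, and p-values are adjusted p from the edgeR fit.

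**Figure D2:**
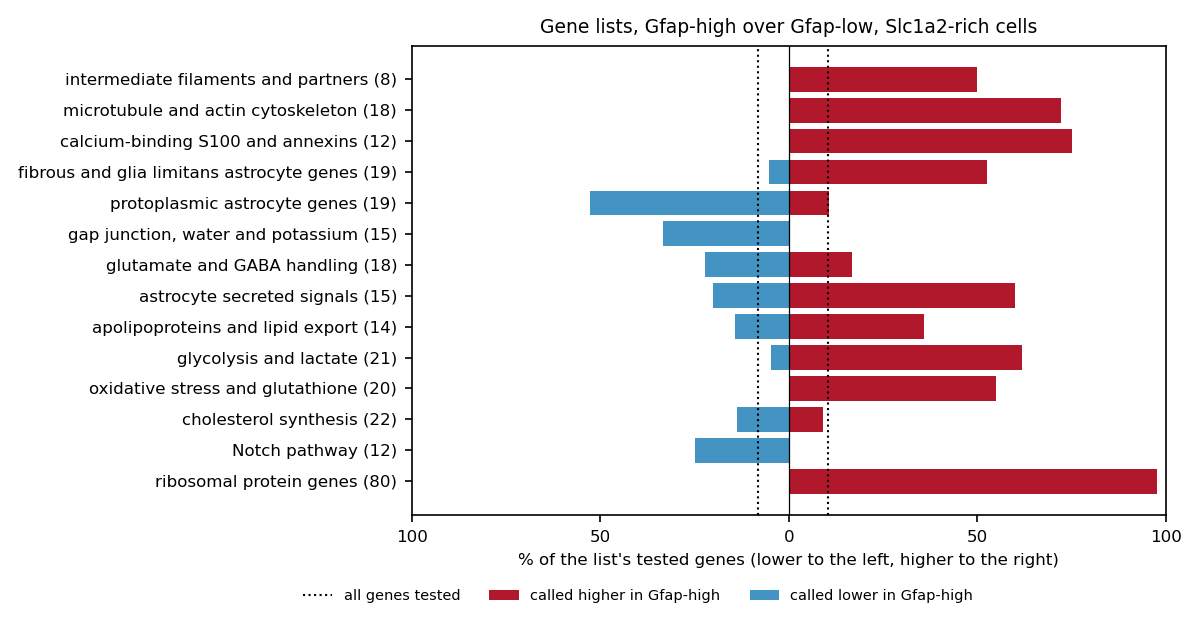
Bars give, for each gene list with its number of tested genes in brackets, the percent called higher (right) or lower (left) in Slc1a2-rich Gfap-high cells, and dotted lines give the same for all genes tested, 10.3% and 8.10%. Ribosomal protein genes and S100 and annexin genes reached far to the right, and protoplasmic astrocyte genes to the left.

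Intermediate filament genes and their partners were called as 4 of 8 higher and 0 lower, with a median log2 fold change of 0.82. Vim, the filament protein that assembles with GFAP, was at 202, 64.4 and 303 CPM in Gfap-high cells, against 90.3, 28.3 and 47.5 CPM in Gfap-low cells (log2 fold change 1.78 ± 0.19, adjusted p = 8.0e-16). Its groups overlapped, since the 5-day Gfap-high cells had less than the SC Gfap-low cells, but Gfap-high cells were above Gfap-low cells in each library; the single cell with most Vim held 36.8%, 41.0% and 29.4% of the Vim UMIs of Gfap-high cells. Synm (synemin, a large filament protein that co-assembles with vimentin) was at 53.2, 26.4 and 89.0 CPM in Gfap-high cells, against 14.99, 5.84 and 11.1 CPM in Gfap-low cells (log2 fold change 2.44 ± 0.36, adjusted p = 4.2e-09). The small heat-shock protein Cryab, which binds GFAP filaments, was at 208, 213 and 154 CPM in Gfap-high cells, against 110.4, 120.2 and 123 CPM in Gfap-low cells (log2 fold change 0.82 ± 0.16, adjusted p = 1.2e-05). Neither Synm nor Cryab overlapped between classes. After thinning, Vim was detected in 19.2% (26.8% without thinning) of Gfap-high cells and 8.37% (10.8% without thinning) of Gfap-low cells. In microglia it was detected in 7.49% (14.9% without thinning), near the thinned share in Slc1a2-rich Gfap-low cells. How much Vim microglia make themselves was not tested, so their share is not a background for this gene.

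Microtubule and actin genes were called as 13 of 18 higher and 0 lower, with a median log2 fold change of 0.64. Tuba1a (an alpha tubulin that overlaps or shares sequence with another gene, so its count is uncertain) was at 1597, 1256 and 837 CPM in Gfap-high cells, against 620.0, 586 and 451 CPM in Gfap-low cells (log2 fold change 1.22 ± 0.11, adjusted p = 2.5e-21). Tubb2b (a beta tubulin) was at 793, 792 and 398 CPM in Gfap-high cells, against 288, 416 and 301 CPM in Gfap-low cells (log2 fold change 1.06 ± 0.12, adjusted p = 1.4e-13). Tuba1a did not overlap between classes; for Tubb2b the 15-day Gfap-high cells were below the 5-day Gfap-low cells. Actb (beta actin, 0.68 ± 0.10), Cfl1 (cofilin, 0.91 ± 0.14), Myl6 (a myosin light chain, 0.996 ± 0.13), Cnn3 (0.81 ± 0.15) and Marcks (0.54 ± 0.12) were higher as well.

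A pair of kinesin motors that carry cargo along microtubules were among the genes with the largest folds. Kif5a was at 197, 249 and 113 CPM in Gfap-high cells, against 35.9, 47.3 and 59.1 CPM in Gfap-low cells (log2 fold change 2.16 ± 0.18, adjusted p = 4.6e-25). Kif5c was at 101, 87.5 and 83.1 CPM in Gfap-high cells, against 29.2, 23.4 and 35.1 CPM in Gfap-low cells (log2 fold change 1.79 ± 0.23, adjusted p = 2.3e-11). Every library of Gfap-high cells was above every library of Gfap-low cells for both. In Slc1a2-poor cells both went the other way: Kif5a was at 23.9, 20.5 and 17.9 CPM in Gfap-high cells, against 46.7, 56.0 and 79.3 CPM in Gfap-low cells (log2 fold change -1.30 ± 0.19, adjusted p = 1.6e-06). Those Slc1a2-poor Gfap-low cells carried neuronal markers at 4700.2, 4890.3 and 3896 CPM, against 562, 978 and 371 CPM in Slc1a2-poor Gfap-high cells. The part of these neuronal transcripts in the opposite direction was not tested. After thinning, Kif5a was detected in 25.3% (42.9% without thinning) of Slc1a2-rich Gfap-high cells, 8.66% (10.4% without thinning) of Slc1a2-rich Gfap-low cells and 7.08% (12.9% without thinning) of microglia.

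**Figure D3:**
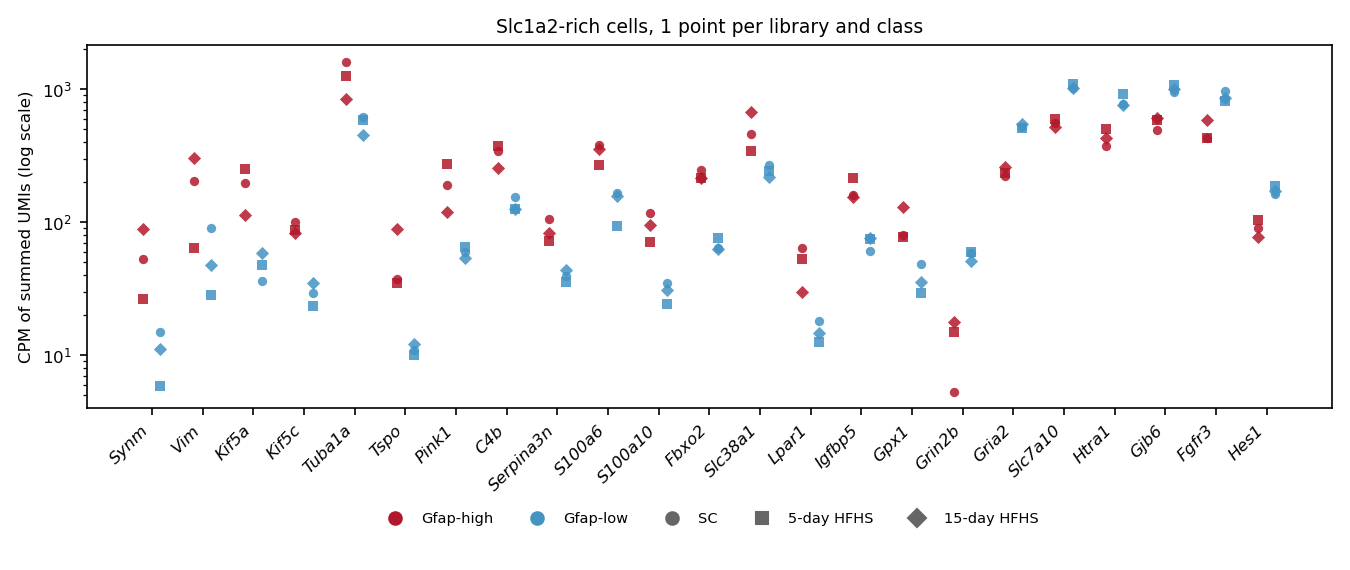
Each point is the CPM of a gene (log y axis) in Slc1a2-rich cells of 1 library, Gfap-high in red left of Gfap-low in blue, with the library given by the shape. Kif5a stood at 113 to 249 CPM in Gfap-high cells, above 35.9 to 59.1 CPM in Gfap-low cells, and Slc7a10 showed the opposite order.

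Calcium-binding S100 proteins and annexins were called as 9 of 12 higher and 0 lower, with a median log2 fold change of 1.19. S100a6 was at 383, 269 and 356 CPM in Gfap-high cells, against 166, 94.4 and 157 CPM in Gfap-low cells (log2 fold change 1.41 ± 0.14, adjusted p = 7.2e-18). S100a10, which forms a complex with an annexin at the membrane, was at 117, 71.0 and 94.9 CPM in Gfap-high cells, against 34.7, 24.3 and 30.9 CPM in Gfap-low cells (log2 fold change 1.72 ± 0.24, adjusted p = 1.9e-10). S100b, the classic astrocyte S100 protein, was at 511, 715 and 569.7 CPM in Gfap-high cells, against 254, 298 and 304 CPM in Gfap-low cells (log2 fold change 1.17 ± 0.12, adjusted p = 3.3e-16). None of the 3 overlapped between classes. S100a11 (1.42 ± 0.36), S100a1 (1.33 ± 0.13), S100a13 (1.29 ± 0.14), S100a16 (0.81 ± 0.14) and Anxa5 (1.21 ± 0.15) were also higher. Both metallothioneins that could be followed, Mt1 (0.63 ± 0.09) and the brain form Mt3 (1.18 ± 0.09), were higher, 2 of 3 tested, with a median of 0.63.

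Genes of fibrous and glia limitans astrocytes, those of white matter and of the brain surface, were called as 10 of 19 higher and 1 lower, with a median log2 fold change of 0.77. Fbxo2 (a subunit of a ubiquitin ligase that recognises glycoproteins) was at 245, 213 and 214 CPM in Gfap-high cells, against 64.3, 76.6 and 63.3 CPM in Gfap-low cells (log2 fold change 1.76 ± 0.16, adjusted p = 1.7e-20). Slc38a1 (a glutamine transporter) was at 463, 345 and 677 CPM in Gfap-high cells, against 268, 243 and 219 CPM in Gfap-low cells (log2 fold change 1.03 ± 0.13, adjusted p = 8.7e-12). Id3 (an inhibitor of differentiation factors) had a fold of 0.96 ± 0.15 and Fabp7 (a brain fatty acid carrier) one of 0.89 ± 0.12. Itih3 (a hyaluronan-binding protein) went the other way, at 1410.2, 1775 and 1768 CPM in Gfap-high cells, against 3259.8, 3327 and 3359 CPM in Gfap-low cells (log2 fold change -0.92 ± 0.10, adjusted p = 1.3e-16). None of Fbxo2, Slc38a1 and Itih3 overlapped between classes.

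Some genes known from reactive astrocytes were called higher, and most of those tested were not called. Over all genes tested, 10.3% were called higher and 8.10% lower. Of the pan-reactive list 2 of 7 tested genes, Vim and Serpina3n, were higher and 0 lower, with a median of 1.01. Serpina3n (a secreted protease inhibitor) was at 106, 72.6 and 83.1 CPM in Gfap-high cells, against 39.4, 35.4 and 44.0 CPM in Gfap-low cells (log2 fold change 1.21 ± 0.23, adjusted p = 7.0e-06). Of the A1 list, linked to inflammation, 0 of 4 tested were higher and 1 lower (median -0.17), and of the A2 list, linked to ischaemia, 1 of 3 was higher (S100a10) and 0 lower (median 0.60). C4b, a complement component, was at 341, 375 and 255 CPM in Gfap-high cells, against 154, 125 and 127 CPM in Gfap-low cells (log2 fold change 1.40 ± 0.14, adjusted p = 2.0e-17). After thinning, C4b was detected in 54.5% (75.9% without thinning) of Gfap-high cells, 26.7% (27.4% without thinning) of Gfap-low cells and 5.13% (9.03% without thinning) of microglia. The complement list was called as 3 of 7 higher and 0 lower, with a median log2 fold change of 0.60, and the list of MHC class I and interferon genes as 3 of 14 higher and 0 lower, with a median log2 fold change of 0.20. B2m, the invariant MHC class I chain, had a fold of 1.09 ± 0.15.

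Genes of protoplasmic, grey-matter astrocytes were mostly on the other side. That list was called as 2 of 19 higher and 10 lower, with a median log2 fold change of -0.42. Slc7a10, a transporter of serine and glycine, was at 559, 593 and 516 CPM in Gfap-high cells, against 1019.5, 1093 and 1025 CPM in Gfap-low cells (log2 fold change -0.82 ± 0.12, adjusted p = 7.4e-10). Gria2, an AMPA receptor subunit, was at 224, 234 and 261 CPM in Gfap-high cells, against 514, 512 and 544 CPM in Gfap-low cells (log2 fold change -1.04 ± 0.14, adjusted p = 5.9e-11). Htra1, a secreted protease, was at 373, 504 and 427 CPM in Gfap-high cells, against 768, 925 and 759 CPM in Gfap-low cells (log2 fold change -0.82 ± 0.12, adjusted p = 5.9e-09). All 3 were lower in every library, and their classes did not overlap. Gpc5 (-0.74 ± 0.18) and Trpm3 (-0.56 ± 0.12) were lower too, and Lxn (a carboxypeptidase inhibitor, 1.24 ± 0.15) was higher.

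Genes for handling of transmitters and for coupling between astrocytes are given beside all genes tested, of which 10.3% were called higher and 8.10% lower. The glutamate and GABA list was called as 3 of 18 higher and 4 lower, with a median log2 fold change of -0.09. Slc6a9 (glycine transporter 1) was lower (-0.78 ± 0.15), while Abat, which breaks GABA down, was higher (0.98 ± 0.13). The list of gap junction, water and potassium genes was called as 0 of 15 higher and 5 lower, with a median log2 fold change of -0.29. Gjb6 (connexin 30) was at 495, 586 and 605 CPM in Gfap-high cells, against 948, 1071 and 1000.5 CPM in Gfap-low cells (log2 fold change -0.76 ± 0.12, adjusted p = 1.5e-08), and Dtna (dystrobrevin, of the endfoot complex) had a fold of -0.75 ± 0.13. Aqp4, the endfoot water channel, was at 1352, 1205 and 1347 CPM in Gfap-high cells, against 1178, 1213 and 1242 CPM in Gfap-low cells (log2 fold change 0.18 ± 0.10, adjusted p = 0.23); its classes overlapped.

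Genes of secreted factors and lipid carriers were called in both directions, as were all genes tested (10.3% higher and 8.10% lower). Astrocyte secreted signals were called as 9 of 15 higher and 3 lower, with a median log2 fold change of 0.60. Dbi (an acyl-CoA binding protein whose peptides act on GABA receptors) was at 6157, 6374 and 5863 CPM in Gfap-high cells, against 2494, 2453 and 2148 CPM in Gfap-low cells (log2 fold change 1.46 ± 0.09, adjusted p = 4.3e-40). Igfbp5 (a carrier of insulin-like growth factors) was at 159.7, 215 and 154 CPM in Gfap-high cells, against 61.1, 75.02 and 76.5 CPM in Gfap-low cells (log2 fold change 1.45 ± 0.17, adjusted p = 6.8e-14). Vegfa (vascular endothelial growth factor) was lower, at 122, 130.4 and 142 CPM in Gfap-high cells, against 348, 311 and 293 CPM in Gfap-low cells (log2 fold change -1.17 ± 0.16, adjusted p = 2.1e-10). These 3 genes did not overlap between classes. Nnat (1.31 ± 0.09), Sparc (1.02 ± 0.09), Clu (0.67 ± 0.09) and Cst3 (0.64 ± 0.07) were higher. Apolipoproteins and lipid export genes were called as 5 of 14 higher and 2 lower, with a median log2 fold change of 0.31, with Pltp (0.95 ± 0.17), Apoc1 (0.88 ± 0.16), Npc2 (0.68 ± 0.14) and Apoe (0.55 ± 0.07) higher and the cholesterol exporter Abca1 (-0.76 ± 0.15) lower.

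Many genes of energy metabolism and redox defence were called higher. Glycolysis and lactate genes were called as 13 of 21 higher and 1 lower, with a median log2 fold change of 0.62, with Pkm (pyruvate kinase) at 607, 575 and 528 CPM in Gfap-high cells, against 289, 309.9 and 314 CPM in Gfap-low cells (log2 fold change 0.99 ± 0.12, adjusted p = 3.0e-12). Aldoc (0.86 ± 0.09), Gapdh (0.83 ± 0.11), Ldhb (0.80 ± 0.12) and Aldoa (0.74 ± 0.12) were higher too. Oxidative stress and glutathione genes were called as 11 of 20 higher and 0 lower, with a median log2 fold change of 0.60. Gpx4, which reduces lipid peroxides, was at 867, 850.2 and 706 CPM in Gfap-high cells, against 373, 388 and 373 CPM in Gfap-low cells (log2 fold change 1.19 ± 0.12, adjusted p = 2.3e-18), and Gstm1, a glutathione transferase, was at 1458, 1334 and 1009 CPM in Gfap-high cells, against 581, 661 and 531 CPM in Gfap-low cells (log2 fold change 1.18 ± 0.11, adjusted p = 1.4e-20). Gpx1 (1.44 ± 0.23), Gstm5 (0.90 ± 0.13), Gsta4 (0.91 ± 0.17), Txn1 (0.93 ± 0.18), Prdx1 (0.79 ± 0.13) and Prdx6 (0.55 ± 0.11) were higher. Cholesterol synthesis was called as 2 of 22 higher and 3 lower, with a median log2 fold change of -0.13, shares near those of all genes; Hmgcs1 was the member followed across settings (0.92 ± 0.15). Fatty acid carriers, oxidation and ketone genes were called as 5 of 22 higher and 2 lower, with a median log2 fold change of 0.30; Acsl3 was lower (-0.59 ± 0.10, with an uncertain count, as it overlaps or shares sequence with another gene).

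Ribosomal protein genes gave the broadest shift: 78 of 80 were higher and 0 lower in Slc1a2-rich Gfap-high cells, with a median log2 fold change of 1.05 against -0.07 over all genes tested. In all gated cells 79 were higher and 0 lower, with a median of 0.87. In Slc1a2-poor cells, where 17.1% of all genes tested were higher and 19.4% lower, 31 were higher and 1 lower, with a median of 0.25. The depth of the Gfap-high cells, given above, moved with this difference, and its part was not tested.

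Most tested genes of the signalling and transcription factor lists were not called. That holds over all genes tested too, where 10.3% were called higher and 8.10% lower. The Notch list was called as 0 of 12 higher and 3 lower, with a median log2 fold change of -0.28; Hes1, a Notch target and repressor, was at 90.5, 104 and 77.1 CPM in Gfap-high cells, against 162, 188 and 172 CPM in Gfap-low cells (log2 fold change -0.82 ± 0.18, adjusted p = 0.00018). The STAT3 list was called as 1 of 12 higher and 1 lower, with a median log2 fold change of 0.20, with Lifr, the receptor of leukaemia inhibitory factor, lower (-0.84 ± 0.17). BMP and Id genes were called as 3 of 13 higher and 0 lower, with a median log2 fold change of 0.14, and the Wnt list as 1 of 14 higher and 3 lower, with a median log2 fold change of -0.22, with Ctnnb1 (beta-catenin) higher (1.36 ± 0.17). Glial transcription factors were called as 4 of 20 higher and 0 lower, with a median log2 fold change of -0.04, with Hopx (1.52 ± 0.35) and Nfix (0.70 ± 0.14) higher. Regional transcription factors were called as 1 of 14 higher and 2 lower, with a median log2 fold change of -0.04.

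Genes of adult neural stem cells were called as 4 of 12 higher and 2 lower, with a median log2 fold change of -0.07. Over all genes tested, the shares were 10.3% higher and 8.10% lower. Lpar1, a receptor for lysophosphatidic acid, was at 63.9, 52.8 and 29.7 CPM in Gfap-high cells, against 18.1, 12.6 and 14.8 CPM in Gfap-low cells (log2 fold change 1.87 ± 0.32, adjusted p = 3.4e-07). Aldh1a1, which makes retinoic acid, was at 176, 129 and 131 CPM in Gfap-high cells, against 57.6, 49.5 and 47.2 CPM in Gfap-low cells (log2 fold change 1.56 ± 0.19, adjusted p = 5.0e-13). Slco1c1, a thyroid hormone transporter, was at 42.6, 41.3 and 35.6 CPM in Gfap-high cells, against 131, 125 and 113 CPM in Gfap-low cells (log2 fold change -1.52 ± 0.23, adjusted p = 1.5e-08). None of the 3 overlapped between classes. Astrocyte identity genes outside the gate were called as 3 of 10 higher and 4 lower, with a median log2 fold change of 0.11; Fgfr3, a fibroblast growth factor receptor of astrocytes, was at 426, 433 and 582 CPM in Gfap-high cells, against 963, 818 and 859.9 CPM in Gfap-low cells (log2 fold change -0.80 ± 0.12, adjusted p = 8.8e-09).

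In each list that remains, more members were not called than were called. The same is true of all genes tested, with 10.3% called higher and 8.10% lower. Extracellular matrix and adhesion genes were called as 1 of 22 higher and 5 lower, with a median log2 fold change of -0.15. Immediate-early genes were called as 2 of 10 higher and 0 lower, with a median log2 fold change of 0.44, with Jun (0.99 ± 0.23) and Jund (0.71 ± 0.17) higher. Glucocorticoid response genes were called as 1 of 16 higher and 1 lower, with a median log2 fold change of -0.14. Leptin, insulin and feeding receptors were called as 3 of 11 higher and 2 lower, with a median log2 fold change of 0.19; the member that passed in every setting, Mlc1, was higher (0.65 ± 0.11), and it codes for an astrocyte junction protein, not for a feeding receptor.

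Over all genes, the 12 largest called increases in Slc1a2-rich cells included Sytl4, Rapgef4, Synm, Tspo, Kif5a, Cd24a, Pink1, Lpar1, Sulf2, Nuf2 and Kif5c. Sytl4, which tethers secretory vesicles, was at 74.5, 21.5 and 53.4 CPM in Gfap-high cells, against 3.94, 7.38 and 7.12 CPM in Gfap-low cells (log2 fold change 2.81 ± 0.42, adjusted p = 7.8e-09). Tspo, an outer mitochondrial membrane protein used as a marker of glial reaction, was at 37.3, 34.7 and 89.0 CPM in Gfap-high cells, against 11.04, 10.1 and 12.1 CPM in Gfap-low cells (log2 fold change 2.23 ± 0.35, adjusted p = 3.7e-08). Pink1, a kinase that marks damaged mitochondria, was at 192, 274 and 119 CPM in Gfap-high cells, against 59.6, 64.6 and 53.5 CPM in Gfap-low cells (log2 fold change 1.88 ± 0.17, adjusted p = 1.2e-21). The 3 genes did not overlap between classes. Cd24a, a surface glycoprotein, was at 53.2, 64.4 and 71.2 CPM in Gfap-high cells, against 22.5, 15.99 and 11.9 CPM in Gfap-low cells (log2 fold change 2.03 ± 0.29, adjusted p = 1.0e-09), and Sulf2, which edits heparan sulfate, was at 101, 92.5 and 136 CPM in Gfap-high cells, against 42.6, 23.7 and 39.0 CPM in Gfap-low cells (log2 fold change 1.81 ± 0.22, adjusted p = 5.5e-13). In Slc1a2-poor Gfap-high cells Cd24a was at 643, 679 and 673 CPM. Rapgef4 had too few UMIs to be tested in every setting, and Nuf2 had an adjusted p of 0.062 without the 5-day library in the same edgeR fit.

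The 12 largest called decreases included Vtn, Ins2, Fam228a, Grin2b, P4ha2, Zfp865, Ascc3, Tatdn3, P3h3, Armc8 and Dgkq, of which Vtn, Grin2b and Zfp865 passed without each library and in the depth range. Grin2b, an NMDA receptor subunit, was at 5.32, 14.9 and 17.8 CPM in Gfap-high cells, against 58.8, 59.3 and 51.4 CPM in Gfap-low cells (log2 fold change -2.004 ± 0.36, adjusted p = 1.4e-06). There was no overlap, but the Gfap-high values of Grin2b rest on few UMIs. Vtn, a pericyte gene, was at 0, 1.65 and 5.93 CPM in Gfap-high cells and 54.8, 3.997 and 113 CPM in Gfap-low cells (adjusted p = 9.3e-08 with edgeR), and its call was lost when cells with the highest doublet scores were removed (adjusted p = 0.10); the summed pericyte markers, given above, were lower in the same cells. Zfp865 shares sequence or an exon with another gene, so its count is uncertain. Without the 5-day library the other 8 of these genes had adjusted p-values of 0.069 to 0.35 in the edgeR fit.

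**Figure D4:**
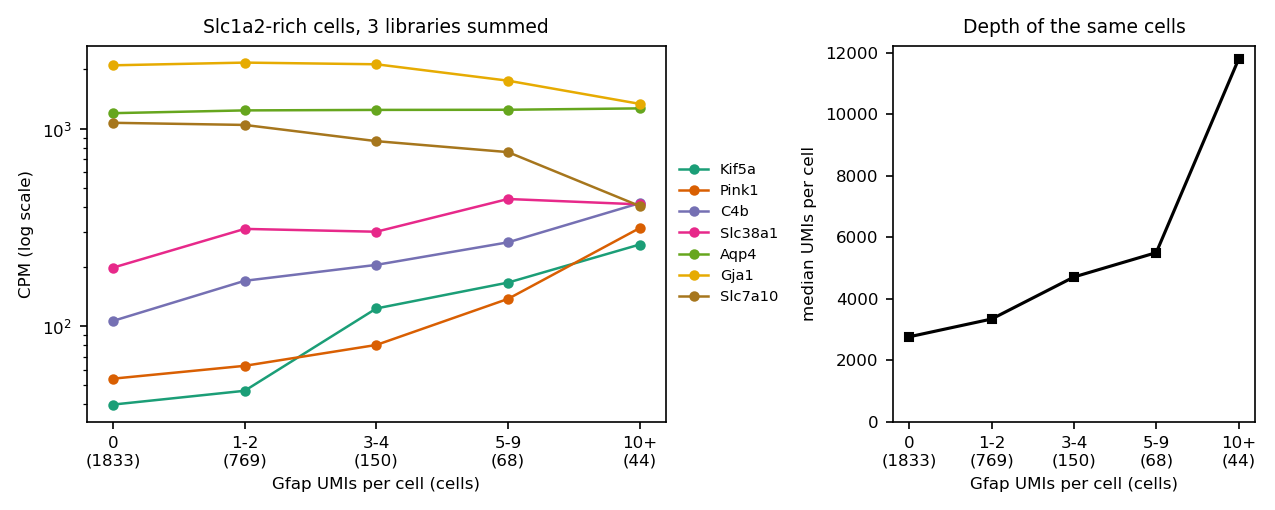
Slc1a2-rich cells of the 3 libraries together, by their Gfap UMIs per cell (x axis, cell numbers in brackets); the left panel gives CPM of 7 genes on a log axis and the right panel the median UMIs per cell. In these sums Kif5a, Pink1 and C4b are highest and Slc7a10 lowest in the last bin, where 28 of 44 cells are from the 5-day library; depth climbs along the same bins, with medians of 2762 to 11783.5 UMIs.

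Levels were also set out by the number of Gfap UMIs in a cell, with 3 bins below the limit of 5. Slc1a2-rich cells with 0, 1 to 2, 3 to 4, 5 to 9 and at least 10 Gfap UMIs numbered 1833, 769, 150, 68 and 44, and 28 of the last 44 were from the 5-day library, so sums over the libraries do not weight them alike. In such sums Kif5a was at 39.9, 46.9, 123, 166 and 259 CPM, and Pink1 at 54.1, 62.8, 80.1, 137 and 314 CPM. C4b was at 106, 169, 204, 266 and 419 CPM and Slc38a1 at 198, 311, 300.5, 440.3 and 414 CPM. Slc7a10 ran the other way, at 1072, 1045, 865, 761 and 406 CPM, Gja1 (connexin 43) was at 2097, 2164, 2122, 1752 and 1337 CPM and Aqp4 at 1199, 1239, 1246, 1248 and 1268 CPM. Within each library, Slc7a10 was no higher in any bin than in the one before it, and Kif5a, Pink1 and C4b were higher and Gja1 lower in the last bin than in the first. The steps between did not keep that order in each library. In the 15-day library Kif5a was at 43.9, 61.1, 207, 89.0 and 148 CPM over the bins, C4b at 97.2, 175, 231, 287 and 208 CPM and Gja1 at 2164, 2203, 1925, 2107 and 1424 CPM. Aqp4 varied more within a library than in the sums, at 1241, 1256, 1191, 1563 and 1024 CPM in the 15-day library and 1189, 1172, 1122, 1367 and 1331 CPM in the SC library. Median depth was 2762, 3339, 4706.5, 5498 and 11783.5 UMIs over the same bins, and its part in these orders was not tested. These bins are a description, as Gfap sorted the cells.

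Slc1a2-poor Gfap-high cells, 68, 40 and 33 in the SC, 5-day and 15-day libraries, were set against 122, 141 and 101 Slc1a2-poor Gfap-low cells. Of 11582 genes tested, 1983 (17.1%) were higher and 2245 (19.4%) lower in Gfap-high cells. Both classes carried ependymal markers, at 7517, 9108 and 7800.1 CPM in Gfap-high and 5748, 5656 and 6049 CPM in Gfap-low cells. The Gfap-low class also carried neuronal markers (4700.2, 4890.3 and 3896 CPM, against 562, 978 and 371 CPM in Gfap-high cells) and oligodendrocyte precursor markers (1859.8, 2121 and 876 CPM, against 33.2, 84.4 and 121 CPM in Gfap-high cells). The part of these markers in the calls was not tested. The largest called increases were C4b, Padi2, Gem, Crispld2, Bst2, Aldh1a1, Atf5, Tesc, Cnmd, Apobec2, Fgl2 and Tnnt3, and the largest called decreases were Arpp21, Ube2c, Tmem163, Tmem100, Plppr5, Sst, Qpct, Hes5, Vtn, Gjc3, Top2a and Brinp3. C4b was at 174, 101.9 and 98.2 CPM in Gfap-high cells, against 43.2, 30.6 and 26.9 CPM in Gfap-low cells (log2 fold change 1.998 ± 0.14, adjusted p = 8.1e-14), with no overlap. Aldh1a1 was at 47.2, 23.6 and 26.8 CPM in Gfap-high cells, against 8.17, 13.3 and 15.7 CPM in Gfap-low cells (log2 fold change 1.54 ± 0.26, adjusted p = 1.3e-05). Ube2c and Top2a are genes of dividing cells. Of the filament genes, Vim had a fold of 0.95 ± 0.12 and Synm one of 0.97 ± 0.11.

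Among all gated cells, the share of Gfap-high cells at 15 days was below that on chow at the depths sequenced. At 5 days the interval of the ratio to chow held 1 for all gated cells. It lay above 1 in Slc1a2-rich cells, though not with depth limited, and below 1 in Slc1a2-poor cells. With depth limited or equalised the 15-day interval for all gated cells held 1 as well, but fewer Gfap-high cells were left to count. Gfap-high cells were 93 of 993 cells, 9.37% [7.63 to 11.4], in the SC library and 97 of 976 cells, 9.94% [8.13 to 11.99], in the 5-day library. In the 15-day library they were 63 of 1400 cells, 4.50% [3.47 to 5.72]. The ratio to SC was 1.06 [0.790 to 1.43] at 5 days and 0.480 [0.343 to 0.669] at 15 days. The 15-day ratio was 0.768 [0.487 to 1.203] in cells of 4000 to 16000 UMIs and 0.488 [0.205 to 1.12] after thinning to 3000 UMIs. It was 0.659 [0.361 to 1.21] with stricter exclusion of other cell types, and all 3 intervals held 1. The thinned ratio was near the 0.480 without thinning. Its wider interval rests on 16 Gfap-high cells in the SC library and 11 in the 15-day library. Among Slc1a2-rich cells alone the order differed: 25 of 803 cells, 3.11% [2.02 to 4.56], in the SC library, 57 of 795 cells, 7.17% [5.48 to 9.19], in the 5-day library and 30 of 1266 cells, 2.37% [1.604 to 3.37], in the 15-day library. There the ratio to SC was 2.30 [1.42 to 3.85] at 5 days and 0.761 [0.433 to 1.35] at 15 days. Among Slc1a2-poor cells, Gfap-high cells were 68 of 190 (35.8%) in SC, 40 of 181 (22.1%) at 5 days and 33 of 134 (24.6%) at 15 days. Their ratio to SC was 0.617 [0.407 to 0.926] at 5 days and 0.688 [0.440 to 1.06] at 15 days. Depth differed between the libraries: with Slc1a2-rich cells limited to 4000 to 16000 UMIs, the ratio was 1.40 [0.812 to 2.50] at 5 days and 0.904 [0.471 to 1.75] at 15 days, and both intervals held 1.

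**Figure D5:**
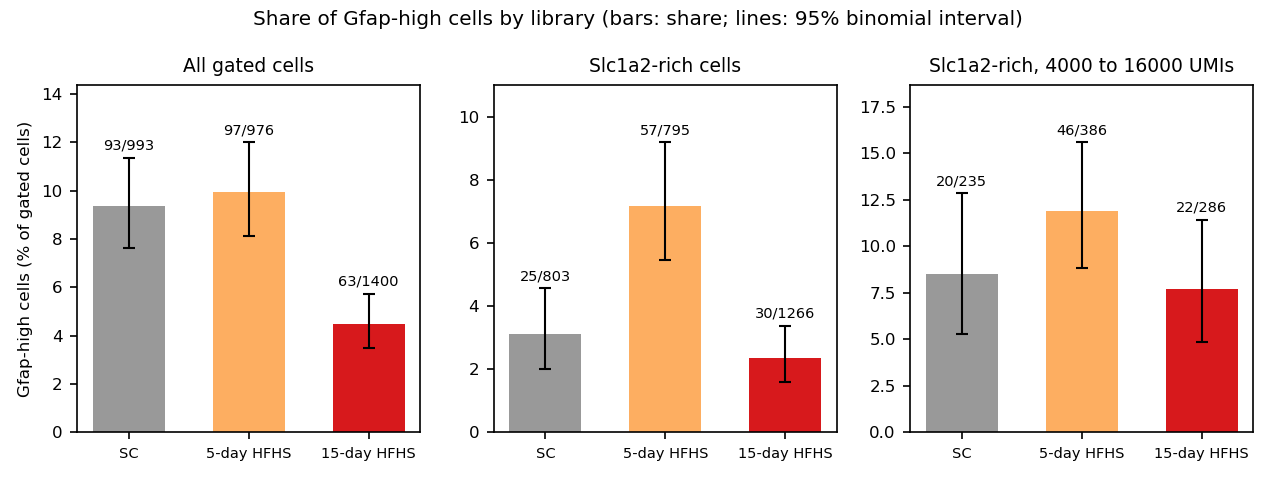
Bars give the share of Gfap-high cells per library among all gated cells, among Slc1a2-rich cells and among Slc1a2-rich cells of 4000 to 16000 UMIs (each panel has its own y axis from 0), with exact binomial 95% intervals and cell numbers above. The 15-day bar is lowest in the first panel at 4.50%, and the 5-day bar is highest in the second at 7.17%.

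Summed levels over all Slc1a2-rich cells are a description, since Gfap-high cells were chosen by the same Gfap UMIs. Over all Slc1a2-rich gated cells (803, 795 and 1266), Gfap was at 288, 384 and 215 CPM in the SC, 5-day and 15-day libraries. The ratio to SC was 1.33 [1.22 to 1.45] at 5 days and 0.746 [0.676 to 0.823] at 15 days; the single cell with most Gfap held 12.0% of the UMIs at 5 days. Gfap-high cells held 42.8%, 70.1% and 32.9% of these Gfap UMIs in the SC, 5-day and 15-day libraries, so the level is no separate support for the share. Vim was at 98.0, 34.0 and 58.3 CPM in the same cells, with ratios of 0.346 [0.279 to 0.428] at 5 days and 0.595 [0.497 to 0.712] at 15 days. Slc1a2 was at 6182, 6176 and 6137 CPM and Aqp4 at 1189.7, 1212 and 1246 CPM. The 15-day ratio was 0.993 [0.973 to 1.01] for Slc1a2 and 1.05 [1.002 to 1.10] for Aqp4. Slc1a3, the other astrocyte glutamate transporter, was at 3750.2, 4161 and 4424 CPM, with ratios of 1.11 [1.08 to 1.14] and 1.18 [1.15 to 1.21].

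Genes differing between diets within Gfap-high cells were named by size alone: no fewer than 100 UMIs over the pair of libraries, 30 CPM or more in 1 of them, a ratio past 1.5 either way, and an interval lying more than 25% away from equality on that side. At 5 days, 188 of 6103 genes considered (3.08%) were higher than in SC and 55 (0.901%) lower. With every cell given equal weight the balance turned, to 292 higher and 497 lower. The leading genes were Baalc, Cldn10, B3galt2, Gabbr2, Pantr1 and Hes5, genes of the Slc1a2-rich cells. Cldn10, a claudin of astrocytes, had a ratio of 5.60 [4.24 to 7.50] in all Gfap-high cells and 1.69 [1.27 to 2.30] in Slc1a2-rich ones. Hes5, a Notch target, had a ratio of 4.33 [3.42 to 5.54] in all Gfap-high cells and 1.248 [0.980 to 1.605] in Slc1a2-rich ones. Kitl, Cox6a2, Sox3, Hspa1a, Kcnh2 and Tshr were the leading genes that were lower, and each had most of its UMIs in Slc1a2-poor cells. The share of Slc1a2-rich cells among Gfap-high cells, 58.8% at 5 days against 26.9% in SC, moved with these ratios, and its part was not tested.

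Within Slc1a2-rich Gfap-high cells, 12 of 1133 genes (1.06%) were higher and 6 (0.530%) lower at 5 days. Paqr6, a membrane progestin receptor, was at 229, 439 and 362 CPM in the SC, 5-day and 15-day libraries (5-day ratio 1.92 [1.39 to 2.71]), against 509, 513 and 511 CPM in Slc1a2-rich Gfap-low cells. Rab7, a GTPase of late endosomes, was at 69.2, 175 and 148 CPM (5-day ratio 2.53 [1.42 to 4.91]) and Cyc1, a subunit of respiratory complex III, at 79.8, 182 and 160.2 CPM (5-day ratio 2.27 [1.32 to 4.203]). Kcna2, a potassium channel subunit, was at 213, 111 and 119 CPM (5-day ratio 0.520 [0.346 to 0.789]).

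At 15 days, 62 of 5487 genes (1.13%) were higher than in SC and 30 (0.547%) lower in Gfap-high cells. With every cell given equal weight, 140 were higher and 252 lower, and without the cell with most UMIs 43 were higher and 47 lower. The leading genes included H2ac18, Usp50, Grcc10, Gstp1 and Kcnip4. All but Kcnip4 overlap or share sequence with another gene, so their counts are uncertain, and the same 4 were higher at 15 days in Gfap-low cells. H2ac18, a histone, was at 3.31, 7.29 and 203 CPM in Gfap-high cells of the SC, 5-day and 15-day libraries and 3.06, 3.95 and 71.8 CPM in Gfap-low cells. Kcnip4, a potassium channel partner, was at 25.05, 23.4 and 65.1 CPM in Gfap-high cells (15-day ratio 2.60 [1.77 to 3.82]) and 14.6, 12.4 and 19.9 CPM in Gfap-low cells. Lower genes were led by Snhg11, Bst2, Uba2, S100a4, Igfbp7 and Polr2h; 1 cell held 47.8% of the Snhg11 UMIs in the SC library. Bst2, an interferon-induced membrane protein, was at 121, 58.3 and 50.4 CPM (15-day ratio 0.415 [0.298 to 0.566]), and 1 SC cell held 28.0% of its UMIs there.

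In the Slc1a2-rich Gfap-high cells at 15 days, 6 of 429 genes (1.40%) were higher and 5 (1.17%) lower. Tubb2b, a beta tubulin, was at 793, 792 and 398 CPM there (15-day ratio 0.501 [0.370 to 0.673]), against 288, 416 and 301 CPM in Slc1a2-rich Gfap-low cells (15-day ratio 1.05 [0.954 to 1.15]). Tuba1a, whose count is uncertain, was at 1597, 1256 and 837 CPM (15-day ratio 0.524 [0.426 to 0.642]), and was lower also in Slc1a2-rich Gfap-low cells, at 620.0, 586 and 451 CPM. Atp5b, a subunit of ATP synthase, was at 628, 621 and 344 CPM (15-day ratio 0.548 [0.393 to 0.757]), and Dynll1, a dynein light chain, at 580.1, 464 and 320.4 CPM (15-day ratio 0.552 [0.391 to 0.772]). Of the genes that were higher, Son (a splicing factor) was at 931, 746 and 1561 CPM and Rpn2 (of the protein glycosylation complex) at 479, 480.4 and 795 CPM. The difference of these ratios between Gfap-high and Gfap-low cells was not tested.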

How the data were processed

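Single-cell 3′ RNA was measured in 3 libraries of mouse arcuate nucleus, 1 per diet, each of 6 pooled animals. The deposited matrices hold raw counts of UMIs, genes by barcodes. Per the submitters' processing notes, Cell Ranger, SAMtools and Scanpy 1.4.4 were used with GRCm38, and per the file headers the matrix software was 3.1.0. All 31253 genes were used, 31184 of them matched to GENCODE M21, which served to mark overlapping or sequence-sharing genes.

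From these counts, cells were gated as the report states. UMIs were summed per library and class and tested with edgeR 4.0.16 in R 4.3.3 (quasi-likelihood, TMM, library as block, at least 60 UMIs over the 6 sums, Benjamini-Hochberg over all genes tested); both classes of a library come from the same pooled animals, which is where the pairing comes from. The genes the gate reads were left out of all counts of calls. DESeq2 1.42.0 was an alternative. These p-values rest on how the difference between Gfap-high and Gfap-low cells varied over the 3 libraries, which differ in diet. Differences between whole libraries are taken out by the block. The spread is estimated partly jointly over genes, so very small p-values do not rest on the 3 pairs alone. Cells of a library are not replicates, and between diets there was no test: shares have exact binomial and levels exact Poisson 95% intervals, which cover counting error only. No cells were removed as doublets in the values reported; Scrublet in Scanpy 1.11.5 marked 0% to 1.53% by its own limit, so the alternative removed the highest scores at 0.8% per 1000 barcodes (291, 211 and 344 barcodes). The edgeR fit of all gated cells was tested on simulated data with a fixed spread and fewer changed genes than were called here. The other fits were not tested in this way.

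Named genes are the 12 per direction with the largest fold among those called with the same sign in all 3 libraries and at least 30 CPM, and 6 per direction between diets. The cells, gene lists and rules were chosen with earlier results of these data known. The separation into Slc1a2-rich and Slc1a2-poor cells, its fits, and the rule that list members are named only where their call held without each library and at 4000 to 16000 UMIs were chosen after seeing the data. Some genes that met these rules are not reported here.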

Additional observations from a re-analysis of the deposited data

Results flagged for a closer look

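Among 123 named genes, 11 met the rule used here when Gfap-high cells were set against Gfap-low cells. They were called in opposite directions in Slc1a2-rich and Slc1a2-poor cells, and the difference passed an interaction test in edgeR over 12849 genes. Passing at an adjusted p under 0.05 was part of the rule, so the adjusted p-values below only describe the genes picked. The share of all genes that meet the rule was not counted. The difference, rich minus poor on the log2 scale, was 3.363 for Rapgef4 (adjusted p = 7.1e-09), 3.383 for Kif5a (1.4e-39) and 3.772 for Kif5c (2.3e-28). It was 1.771 for Tubb2b (1.8e-20), 1.188 for Cfl1 (1.0e-08) and 1.212 for Marcks (7.0e-10), genes of the cytoskeleton. Fabp7 differed by 2.898 (1.7e-51), S100a16 by 1.287 (6.6e-10) and Jun by 1.23 (5.8e-05). The connexin Gjb6 differed by -1.48 (1.2e-10) and the cholesterol exporter Abca1 by -1.167 (1.1e-06). These cells were separated by Slc1a2, Agt and Ntsr2 after the data were seen, and the Slc1a2-poor Gfap-low class carried neuronal and oligodendrocyte precursor markers; the part of that in the differences was not tested.

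The ratio of the share of Gfap-high cells to SC was 1.061 at 5 days and 0.4805 at 15 days, on opposite sides of 1. The difference between them was not tested, as each diet had 1 library, and the 5-day interval held 1 for all gated cells. It lay above 1 in Slc1a2-rich and below 1 in Slc1a2-poor cells.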

How the results depend on the processing

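In all gated cells, 3469 genes were higher and 3427 lower. The counts were 1455 and 975 in cells of 4000 to 16000 UMIs, 1014 and 727 with stricter exclusion of other cell types, 149 and 214 with cells thinned to 3000 UMIs, 1111 and 876 in Slc1a2-rich cells and 1983 and 2245 in Slc1a2-poor cells; DESeq2 called 2076 lower. Without each library in turn, 2429 to 3314 were higher and 2072 to 3267 lower, the fewest lower without SC. Without the library as a replicate block, 3523 were higher and 3554 lower, and none of the 24 named genes changed its call. No paired analysis was possible between diets because each diet had 1 library.

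In Slc1a2-rich cells, 1111 higher genes became 673 with stricter exclusion and 642 with DESeq2, and 876 lower genes became 350 and 239 in those settings, 436 at 4000 to 16000 UMIs and 509 with the highest doublet scores removed. Without each library, 470 to 1113 were higher and 194 to 836 lower, the fewest of both without the 5-day library; without SC 430 were lower. The causes were not tested.

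The share ratio of 1.06 at 5 days was 2.00 with stricter exclusion, 2.30 in Slc1a2-rich and 0.617 in Slc1a2-poor cells, and the Slc1a2-rich value was 1.40 at 4000 to 16000 UMIs. The 15-day ratio of 0.480 was 0.329 with at least 10 Gfap UMIs, 0.768 at 4000 to 16000 UMIs, 0.761 in Slc1a2-rich and 0.688 in Slc1a2-poor cells.

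Past the size rule at 5 days, 188 higher and 55 lower genes became 292 and 497 with every cell weighted equally, 1 and 4 after thinning, 88 and 20 at 10% mitochondrial UMIs, 12 and 6 in Slc1a2-rich cells and 27 and 20 in Slc1a2-poor cells. At 15 days, 62 higher and 30 lower genes became 140 and 252 with equal weights, 0 and 3 after thinning, 112 and 46 with at least 3 Gfap UMIs, 6 and 5 in Slc1a2-rich cells, 40 higher in Slc1a2-poor cells and 47 lower without the cell with most UMIs.

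Values that changed sign were C1ql1 (0.091), Olfm2 (0.75) and Sst (0.028) in Slc1a2-rich cells, and Sst at 4000 to 16000 UMIs (0.45) and with stricter exclusion (0.20). The 5-day log2 ratio in Gfap-high cells changed sign for Slc1a2 after thinning (-0.11), in Slc1a2-rich (-0.13) and in Slc1a2-poor cells (-0.016), and for Slc1a3 in Slc1a2-poor cells (-0.10). The 15-day log2 ratio of Snhg11 was 1.76 with at least 3 Gfap UMIs. Depth differed between Gfap-high and Gfap-low cells in all libraries, and 25 Slc1a2-rich Gfap-high cells in SC limit what that library can show.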
